A study of Homo sapiens with 30 samples.

Results

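C4-2-tet-shRB is a form of C4-2, a castration-resistant human prostate cancer cell line descended from LNCaP, that carries a short hairpin RNA against RB1 under a doxycycline-inducible promoter. The effect described here is that of the hairpin's induction in cells that got DMSO and no inhibitor: 2 libraries of cells given doxycycline (0.05 µg/ml, 3 days) and DMSO were set against 2 libraries of cells given DMSO and no doxycycline. These 4 libraries were chosen by their labels, out of 30 samples of the series. All were grown in 5% charcoal-stripped serum, which is low in androgen, and sequenced from an mRNA kit. Neither a control hairpin with doxycycline nor a parental line with doxycycline was analysed here, so lower RB1, doxycycline and hairpin induction cannot be told apart. Whether the line is 1 clone is not stated. The other groups used below were the same cells with doxycycline and GSK2879552 (10 µM, 24 h), an inhibitor of the histone demethylase LSD1, and with the inhibitor alone (2 libraries each). Further groups were the same line after 3 days of doxycycline at the same dose, or none. Each was given vehicle or 10 nM dihydrotestosterone (DHT, 24 h), in 8% charcoal-stripped and 2% whole serum. Each condition counts here as 1 library, from a total RNA kit. That table also holds 2 libraries after 30 days of doxycycline (vehicle and DHT), which entered the joint fit with that table. The labels list 2 replicates for each condition of that table. These differed by about counting error alone (chi-square ratio 0.983 to 1.01) and were summed as if lanes of 1 library. The last groups were VCaP prostate cancer cells with an RB1 siRNA or a control siRNA (20 nM, 2 days, 3 libraries each).

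RB1 encodes the retinoblastoma protein, which with its relatives p107 (RBL1) and p130 (RBL2) forms the pocket protein family. Unphosphorylated RB binds the activating E2F factors and holds their targets silent in G1. Cyclin-dependent kinases phosphorylate RB and release E2F, which then switches on genes of origin licensing, nucleotide synthesis and replication. RB1 loss is common in advanced, androgen-independent prostate cancer and androgen signalling drives the luminal cells from which this line descends.

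RB1 checked the labels. It stood at 4.64 and 6.24 CPM with doxycycline, against 23.4 and 26.1 CPM without it, a fold of 0.221 (log2 fold change -2.18 ± 0.18, adjusted p = 3.43e-06), and the groups did not overlap. CPM are counts scaled with TMM to a common library size. Adjusted p-values come from edgeR's quasi-likelihood test over 18423 genes with Benjamini-Hochberg adjustment, n = 2 per group, and a gene was called under 0.05. With 2 libraries per group, a lack of overlap between groups adds no support to a call, here or below. How many of all genes lack overlap is not given here. The largest rise of all was at MIR30A, the locus of the microRNA miR-30a on chromosome 6, and its products are shown because nothing else in the data separated the groups as widely.
hsa-miR-30a-5p: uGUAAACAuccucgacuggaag
hsa-miR-30a-3p: cUUUCAGUcggauguuugcagc
Capitals mark the seed, bases 2 to 8 from the 5′ end, in the RefSeq mature sequences of GRCh38.p14, at chr6:71403595-71403616 and chr6:71403554-71403575 on the minus strand. Among the miRNAs in the sequence table used here, which is not a complete set, the seed of the 5p arm also occurs in hsa-miR-30c-5p and hsa-miR-30e-5p, and that of the 3p arm in hsa-miR-30e-3p. Counts at MIR30A were 102 and 101 CPM with doxycycline, against 2.21 and 2.48 CPM without it (log2 fold change 5.43 ± 0.12, adjusted p = 8.19e-15). In the DHT experiment they were 87.7 and 116 CPM after 3 days of doxycycline with vehicle and with DHT, against 1.57 and 2.18 CPM without doxycycline, and in VCaP cells, which were given an siRNA in place of a hairpin, MIR30A was listed at 0 in all 6 libraries. The miR-30a precursor is widely used as the scaffold of hairpin vectors, but which vector this line carries is not given in the sources used here. Reads of the cell's own miR-30a transcript and of an induced hairpin transcript cannot be told apart in these counts.

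Induction moved many genes by small amounts. Of 18423 genes tested, 783 were called higher (4.25%) and 661 lower (3.59%), and 53 of the higher and 23 of the lower genes differed at least 2-fold. The median log2 fold change was 0.44 over the genes called higher and -0.39 over those called lower, against 0.00 over all genes tested. Library depth was 20464130 and 22326960 counted reads with doxycycline, against 14515932 and 15736773 without it. The 2 doxycycline libraries differed from each other by 1.61 times counting error (chi-square ratio) and the 2 untreated libraries by 3.56 times. The spread was estimated over all 8 libraries of the table, whose inhibitor-only pair differed most (ratio 7.88). Without 1 of the 4 DMSO libraries, 149 to 274 genes were called higher and 130 to 238 lower, fewest higher without untreated replicate 1. Without either inhibitor-only library 1676 and 1628 were called higher and 1524 and 1550 lower. A gene is said to hold below if it was called with all 8 libraries and again in each of the 8 fits that left 1 out. This was so for 107 higher and 91 lower genes. Every one of the 1444 called genes kept its sign in each of those fits, which reuse most of the same libraries and could hardly change it. The labels do not say that replicates were separate cultures, so the p-values reflect the spread of these libraries alone.

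The cells carried the identity that their label gives. Of 15 markers of LNCaP-type epithelium (KLK3, HOXB13, keratins and others) 15 were above 1 CPM in every library, and their sum was 13985 and 13872 CPM with doxycycline, against 16198 and 16003 CPM without it. Fibroblast markers summed to 39.3 and 39.2 CPM, against 52.7 and 47.2 CPM, nearly all of it COL1A1 at 35.9 and 35.4 CPM, against 48.1 and 43.7 CPM; POSTN was at 0 in all 4 libraries. Markers of blood and endothelium summed to 8.16 and 8.16 CPM, against 9.79 and 7.82 CPM, with CD3E and HBB at 0, and those of prostate lines without luminal identity to 16.7 and 15.7 CPM, against 20.3 and 20.0 CPM, with CAV1, KRT5 and IL6 at 0. In bulk RNA, fewer cells of a type and less RNA per cell cannot be told apart.

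**Figure D1:**
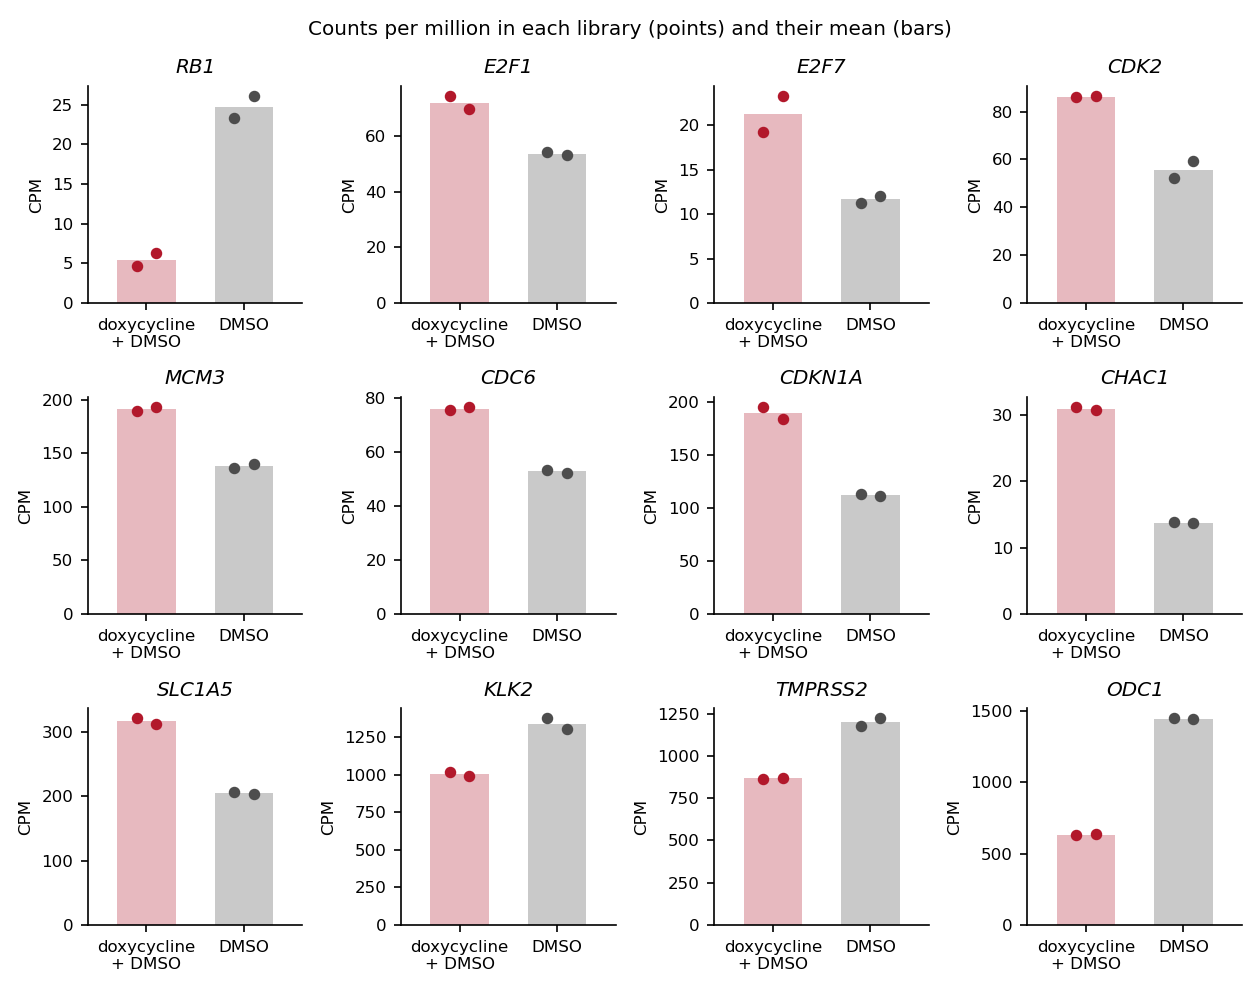
Each panel plots 1 gene in CPM (y axis from 0), doxycycline with DMSO on the left and DMSO on the right, with a point per library and a bar at the mean of 2. In RB1 the doxycycline points lie at 4.64 and 6.24 CPM, below both untreated ones, and in CHAC1 and CDK2 they lie above them.

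Among the pocket proteins and E2F factors, 2 of 13 tested members rose and 3 fell. RBL2, the pocket protein of quiescent cells, fell together with RB1 and stood at 127 and 135 CPM with doxycycline, against 184 and 196 CPM without it (log2 fold change -0.54 ± 0.07, adjusted p = 0.000209). RBL1, which binds the repressor E2F4 in cycling cells and is itself an E2F target, had a log2 fold change of 0.31 ± 0.11 and no call (adjusted p = 0.0878). RBL1 was called in the edgeR fit of only the 4 DMSO libraries (0.31, adjusted p = 0.0116). The largest rise in the family was that of E2F7, an atypical E2F that represses E2F1 targets late in S phase, at 19.3 and 23.3 CPM with doxycycline, against 11.3 and 12.1 CPM without it (log2 fold change 0.86 ± 0.12, adjusted p = 0.000507). RB1, RBL2 and E2F7 held.

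E2F1, the activator that RB restrains, rose, with 74.3 and 69.7 CPM with doxycycline, against 54.3 and 53.2 CPM without it (log2 fold change 0.42 ± 0.08, adjusted p = 0.00343). Its call was lost without untreated replicate 1, untreated replicate 2 or doxycycline replicate 1 (adjusted p = 0.0572 to 0.0913). The other activators E2F2 and E2F3 had 0.29 ± 0.13 and 0.18 ± 0.09 with no call (adjusted p = 0.199 and 0.286), and E2F8, the partner of E2F7, had 0.32 ± 0.16 (adjusted p = 0.243). Of the DP proteins that pair with E2Fs, TFDP2 fell (-0.31 ± 0.08, adjusted p = 0.0157, lost without any 1 of the 4 DMSO libraries (adjusted p = 0.0921 to 0.197)), and TFDP1 had 0.12 ± 0.08 with no call.

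Of the genes that drive or brake G1, 5 of 18 rose and 0 fell, and the median was 0.30. In this list and in those of G2/M, homologous recombination, histones, ATF4, sterol synthesis, immediate early and mitochondrial genome genes below, the count of 0 lower in edgeR was also 0 at an unadjusted p under 0.05, by DESeq2 and by limma voom. CDK2, the kinase of cyclins E and A, stood at 86.1 and 86.4 CPM with doxycycline, against 52.1 and 59.5 CPM without it (log2 fold change 0.63 ± 0.08, adjusted p = 0.000138). CDKN1A, which encodes the CDK2 inhibitor p21, rose at the same time to 195 and 183 CPM with doxycycline, against 113 and 111 CPM without it (log2 fold change 0.75 ± 0.07, adjusted p = 8.58e-06). Both held, and in both the doxycycline libraries lay above the untreated ones. CCNE2 (cyclin E2) rose by 0.71 ± 0.17, CCND3 (cyclin D3) by 0.31 ± 0.08 and CDKN2C, the p18 inhibitor of CDK4 and CDK6, by 0.30 ± 0.09. Each of these 3 calls was lost without at least 1 library, that of CCNE2 without any 1 of the 4 DMSO libraries (adjusted p = 0.0623 to 0.156). CCND1, CCNE1, CDK4 and CDK6, the cyclins and kinases that phosphorylate RB, had log2 fold changes of 0.02 ± 0.06, 0.35 ± 0.12, 0.16 ± 0.07 and 0.30 ± 0.25 with no call. The inhibitors CDKN1B (0.14 ± 0.07) and CDKN1C (-0.09 ± 0.13) had no call either. In the edgeR fit of only the 4 DMSO libraries CCNE1 (0.35, adjusted p = 0.011) and CDK4 (0.17, adjusted p = 0.0231) were called.

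Of 72 tested genes of DNA replication 22 rose and 1 fell, 64 had a positive log2 fold change and the median was 0.22. Without any 1 of the 4 DMSO libraries 10 to 12 were called higher (10 without untreated replicate 1 or doxycycline replicate 2), and without either inhibitor-only library 37 and 36. In origin licensing, the loading of the MCM helicase onto origins in G1, 9 of 17 rose with a median of 0.35. Helicase activation had 1 of 11 (CDC7, the kinase that fires origins, 0.43 ± 0.09), polymerases and fork proteins 6 of 28, nucleotide supply 3 of 9 and chromatin assembly 3 of 7. Members that held were CDC6, GMNN, MCM2, MCM3, MCM4, TYMS and CHAF1B. The 1 that fell was POLD4, the smallest subunit of polymerase delta (-0.42 ± 0.10, adjusted p = 0.0154), a call lost without any 1 of the 4 DMSO libraries (adjusted p = 0.0515 to 0.22).

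The MCM complex is the ring helicase that opens the double helix ahead of the fork. MCM3 stood at 189 and 193 CPM with doxycycline, against 136 and 139.7 CPM without it (log2 fold change 0.47 ± 0.06, adjusted p = 0.000253). MCM4 stood at 202 and 203 CPM with doxycycline, against 138 and 148 CPM without it (0.50 ± 0.06, adjusted p = 0.000158), and MCM2 at 263 and 255 CPM with doxycycline, against 196 and 192 CPM without it (0.42 ± 0.06, adjusted p = 0.000627). The groups overlapped in none of these 3, which adds no support to the calls. MCM5 and MCM6 rose by 0.36 ± 0.08 and 0.37 ± 0.07, but MCM5 lost its call without untreated replicate 2, doxycycline replicate 1 or doxycycline replicate 2 (adjusted p = 0.0901 to 0.175) and MCM6 without untreated replicate 1, doxycycline replicate 1 or doxycycline replicate 2 (adjusted p = 0.0537 to 0.0956). The remaining subunit, MCM7, had 0.16 ± 0.06 and no call (adjusted p = 0.132). In the edgeR fit of only the 4 DMSO libraries MCM7 was called (0.17, adjusted p = 0.00807).

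CDC6, which loads the MCM ring, stood at 75.5 and 76.5 CPM with doxycycline, against 53.2 and 52.4 CPM without it (log2 fold change 0.53 ± 0.08, adjusted p = 0.000507). GMNN, which encodes geminin, the inhibitor of the other loading factor CDT1, also rose (0.56 ± 0.09), as did CDT1 (0.52 ± 0.10). TYMS, the thymidylate synthase that makes dTMP, stood at 55.1 and 60.6 CPM with doxycycline, against 38.8 and 39.3 CPM without it (log2 fold change 0.57 ± 0.08, adjusted p = 0.000627). CHAF1B, a subunit of the histone chaperone CAF-1 at the fork, rose by 0.55 ± 0.09. Larger in size but not holding were the primase subunit PRIM1 (0.73 ± 0.13, lost without untreated replicate 1 (adjusted p = 0.109)) and POLE2 of polymerase epsilon (0.69 ± 0.19, lost without any 1 of the 4 DMSO libraries (adjusted p = 0.0513 to 0.38)). The sliding clamp PCNA rose by 0.39 ± 0.08 and the flap endonuclease FEN1 by 0.37 ± 0.07, calls lost without untreated replicate 1 or doxycycline replicate 2 (adjusted p = 0.0901 to 0.116) and without untreated replicate 2, doxycycline replicate 1 or doxycycline replicate 2 (adjusted p = 0.0611 to 0.0751).

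E2F sites are short GC-rich words in such promoters. The promoter window searched ran from 250 bases before to 50 after the RefSeq start of a gene in GRCh38.p14, on both strands, for TTTCCCGC, TTTGGCGC, TTTCGCGC and TTTGCCGC, and a promoter with several was counted once. At least 1 was present in 25 of the 63 DNA replication members with a promoter in the table (39.7%), against 3.33% of all 27305 promoters and 5.21% of 10412 promoters of tested genes. That share describes the genes on the list, whatever their response to doxycycline. Over all genes called higher a word was in 41 of 524 promoters (7.82%), and over all called lower in 25 of 477 (5.24%). Among the DNA replication members that rose it was in 9 of 19, and among those not called in 16 of 43. The promoters of the 3 matching members with the smallest p are shown, with the word in capitals.
MCM3: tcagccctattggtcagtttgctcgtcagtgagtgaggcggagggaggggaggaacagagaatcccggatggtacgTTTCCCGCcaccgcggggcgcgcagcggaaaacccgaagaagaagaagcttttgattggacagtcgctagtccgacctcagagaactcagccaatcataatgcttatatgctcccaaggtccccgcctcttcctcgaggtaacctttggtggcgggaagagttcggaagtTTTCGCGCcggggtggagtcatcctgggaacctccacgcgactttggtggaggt
CDC6: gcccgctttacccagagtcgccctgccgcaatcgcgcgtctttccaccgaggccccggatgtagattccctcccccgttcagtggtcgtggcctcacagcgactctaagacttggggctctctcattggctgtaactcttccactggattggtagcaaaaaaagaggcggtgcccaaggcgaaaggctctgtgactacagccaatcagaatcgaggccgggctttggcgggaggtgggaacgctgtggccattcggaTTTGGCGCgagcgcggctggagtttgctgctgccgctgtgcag
TYMS: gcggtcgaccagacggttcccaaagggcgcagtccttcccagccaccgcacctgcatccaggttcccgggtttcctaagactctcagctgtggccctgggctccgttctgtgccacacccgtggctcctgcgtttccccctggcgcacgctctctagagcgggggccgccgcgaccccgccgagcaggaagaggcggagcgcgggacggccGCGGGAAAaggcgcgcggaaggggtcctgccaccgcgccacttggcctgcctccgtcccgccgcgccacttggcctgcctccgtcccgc
They lie at chr6:52284693-52284992 (minus strand), chr17:40287629-40287928 (plus) and chr18:657403-657702 (plus). As offsets from the start base, the words begin at -174 and -4 in MCM3, at 7 in CDC6 and, as the reverse complement GCGGGAAA, at -39 in TYMS. A match describes the letters and does not show that a factor binds there.

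Of 60 G2/M genes 10 rose and 0 fell, with a median of 0.16. WEE1, the kinase that holds CDK1 inactive before mitosis, was the 1 that held, at 42.9 and 43.9 CPM with doxycycline, against 27.1 and 28.7 CPM without it (log2 fold change 0.64 ± 0.09, adjusted p = 0.000439). PKMYT1, the second kinase with that role, rose by 0.44 ± 0.11, AURKB, the Aurora kinase of the chromosomal passenger complex, by 0.42 ± 0.09, and KIF20A, a kinesin of cytokinesis, by 0.42 ± 0.09. Without 1 of the 4 DMSO libraries 1 to 3 of the 60 were called, and KIF20A had a log2 fold change of 0.28 without untreated replicate 1.

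In homologous recombination and Fanconi repair 7 of 32 rose and 0 fell (median 0.17), among them BRCA1 (0.39 ± 0.08, adjusted p = 0.00706) and the helicase BRIP1 (0.65 ± 0.13), and 0 of the 7 held. BRCA1 lost its call without untreated replicate 1, untreated replicate 2 or doxycycline replicate 1 (adjusted p = 0.078 to 0.154), and over the 7 the adjusted p where a call was lost was 0.0547 to 0.356. Of 38 tested replication-dependent histone genes 8 rose and 0 fell (median 0.23). HIST1H2BJ stood at 23.0 and 21.0 CPM with doxycycline, against 8.14 and 9.91 CPM without it (log2 fold change 1.28 ± 0.13, adjusted p = 1.56e-05) and HIST1H2BK at 202 and 206 CPM with doxycycline, against 92.9 and 115 CPM without it (0.97 ± 0.08, adjusted p = 3.44e-06), and both held. These genes share much of their sequence, so reads may be split between copies, and their transcripts mostly lack the poly(A) tail that mRNA kits select for.

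**Figure D2:**
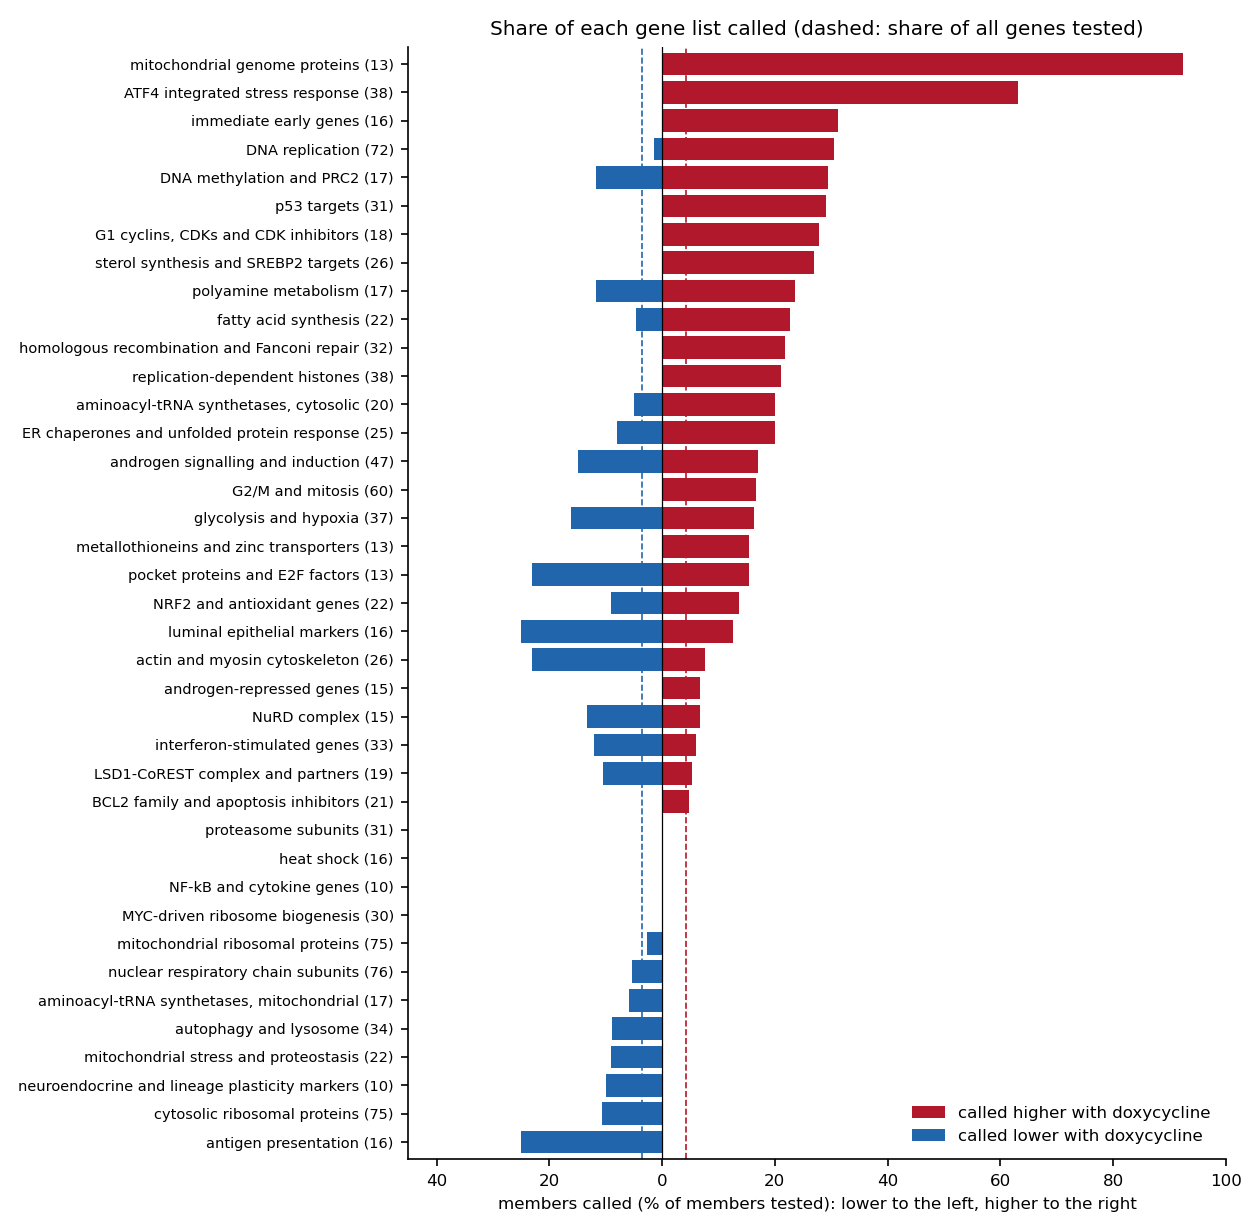
Bars give the percent of tested members of each list called higher or lower (x axis, percent), for lists of at least 10 tested members, and dashed lines mark the shares over all genes, 4.25% and 3.59%. The mitochondrial genome (12 of 13) and ATF4 (24 of 38) lists have the highest shares called higher.

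ATF4 is the transcription factor of the integrated stress response, which switches on amino acid synthesis and import when amino acids are short or proteins misfold. Of 38 tested genes in its list 24 rose and 0 fell, the median was 0.41, and 14 held. ATF4 itself, which is controlled mainly through its translation, rose by 0.21 ± 0.06 (adjusted p = 0.0451). This call was lost without any 1 of the 4 DMSO libraries and without either doxycycline-inhibitor library. Without doxycycline replicate 1 or untreated replicate 2 the list had 15 calls.

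The medians were 0.44 over the regulators, 0.38 over serine, glycine and one-carbon enzymes and 0.37 over asparagine, cystine and transport genes. SLC1A4, a carrier of alanine and serine, stood at 53.2 and 50.5 CPM with doxycycline, against 26.9 and 27.1 CPM without it (log2 fold change 0.94 ± 0.08, adjusted p = 4.93e-06), and SLC1A5, the glutamine carrier, at 321 and 313 CPM with doxycycline, against 207 and 204 CPM without it (0.63 ± 0.07, adjusted p = 2.71e-05). SLC7A11, which imports cystine in exchange for glutamate, rose by 0.65 ± 0.09, and SLC38A1, another glutamine carrier, by 0.51 ± 0.08. In none of these 4 did the groups overlap, which adds no support to the calls. SLC7A5 and its heavy chain SLC3A2, which import leucine, rose by 0.26 ± 0.07 and 0.26 ± 0.06, SLC3A2 losing its call without any 1 of the 4 DMSO libraries (adjusted p = 0.122 to 0.185).

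The enzymes of serine synthesis PSAT1 and PSPH rose by 0.58 ± 0.06 and 0.58 ± 0.08, and the mitochondrial folate enzymes MTHFD2 and ALDH1L2 by 0.50 ± 0.07 and 0.51 ± 0.08; all 4 held. ASNS, the asparagine synthetase, rose by 0.37 ± 0.06, a call lost without doxycycline replicate 1 (adjusted p = 0.0532). Of the regulators, CHAC1, which degrades glutathione, stood at 31.2 and 30.8 CPM with doxycycline, against 13.9 and 13.7 CPM without it (log2 fold change 1.17 ± 0.12, adjusted p = 1.95e-05). TRIB3, a pseudokinase that feeds back on ATF4, rose by 0.48 ± 0.08, CEBPG, a partner of ATF4 on DNA, by 0.59 ± 0.08, and ATF3 by 0.52 ± 0.09; these 4 held. Of 20 cytosolic aminoacyl-tRNA synthetases 4 rose and 1 fell (KARS, -0.34 ± 0.06), and 0 of them held; CARS, IARS, MARS and TARS rose by 0.24 to 0.33.

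C/EBP-ATF response elements have the core TGATGNAA. That word, on either strand of the same window, was in 7 of the 31 ATF4 members with a promoter in the table (22.6%), against 3.67% of all promoters and 1.72% of those of tested genes. That share, too, describes the genes on the list. Over all genes called higher the word was in 15 of 524 promoters (2.86%), and over all called lower in 4 of 477 (0.839%). Among the ATF4 members it was in 5 of 20 that rose and 2 of 11 not called. Of those that rose, CHAC1 and SLC38A1 had the smallest p among promoters with a match.
CHAC1: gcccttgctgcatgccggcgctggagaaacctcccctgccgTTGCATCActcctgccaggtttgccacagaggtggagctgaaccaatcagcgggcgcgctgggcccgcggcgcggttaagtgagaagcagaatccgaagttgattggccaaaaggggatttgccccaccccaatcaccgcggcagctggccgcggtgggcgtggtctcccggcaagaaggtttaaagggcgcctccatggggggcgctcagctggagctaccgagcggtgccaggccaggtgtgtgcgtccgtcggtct
SLC38A1: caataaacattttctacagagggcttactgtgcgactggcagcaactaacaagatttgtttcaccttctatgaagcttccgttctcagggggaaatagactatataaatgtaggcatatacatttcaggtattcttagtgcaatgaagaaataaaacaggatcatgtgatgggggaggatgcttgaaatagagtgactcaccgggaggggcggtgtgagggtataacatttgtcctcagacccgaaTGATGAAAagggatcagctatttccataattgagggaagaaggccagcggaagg
They lie at chr15:40953221-40953520 (plus strand) and chr12:46266467-46266766 (minus), and the word begins at -209 in CHAC1, as TTGCATCA, and at -4 in SLC38A1, as TGATGAAA.

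The unfolded protein response of the endoplasmic reticulum, which can also feed into ATF4, did not move as one. Of 25 chaperones and response genes 5 rose and 2 fell. HSPA5, the chaperone BiP, fell to 967 and 969.6 CPM with doxycycline, against 1366 and 1385 CPM without it (log2 fold change -0.51 ± 0.05, adjusted p = 2.92e-05), and HERPUD1, of the degradation machinery, rose by 0.50 ± 0.06; both held. The other 5 calls did not hold, among them XBP1 (0.27 ± 0.06, lost without any 1 of the 4 DMSO libraries (adjusted p = 0.0655 to 0.189)) and SDF2L1 (0.51 ± 0.09, lost without untreated replicate 2 or doxycycline replicate 1 (adjusted p = 0.0529 to 0.061)).

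Of 31 p53 targets 9 rose and 0 fell (3 at an unadjusted p under 0.05, 1 by DESeq2), with a median of 0.21. CDKN1A, the death ligand receptor TNFRSF10B (0.47 ± 0.06), SESN2 (0.73 ± 0.09), a leucine sensor that ATF4 also induces, and PMAIP1 (NOXA), a BH3-only killer, held. PMAIP1 stood at 5.91 and 5.98 CPM with doxycycline, against 2.14 and 2.48 CPM without it (log2 fold change 1.36 ± 0.20, adjusted p = 0.000627). It was the 1 called gene among 21 of the BCL2 family and apoptosis inhibitors, near the share of all genes called higher (4.25%). SESN2 was on both the ATF4 and the p53 list. Immediate early genes had 5 of 16 higher and 0 lower: JUN (0.41 ± 0.08, lost without untreated replicate 1, untreated replicate 2 or doxycycline replicate 1 (adjusted p = 0.0593 to 0.141)), JUND, DUSP1 (0.59 ± 0.09), ATF3 and KLF4. JUND stood at 242 and 224 CPM with doxycycline, against 145 and 142 CPM without it (log2 fold change 0.70 ± 0.11, adjusted p = 0.0007), and KLF4, a factor of epithelial differentiation, at 21.6 and 21.4 CPM with doxycycline, against 11.7 and 13.0 CPM without it (0.81 ± 0.11, adjusted p = 0.000359).

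**Figure D3:**
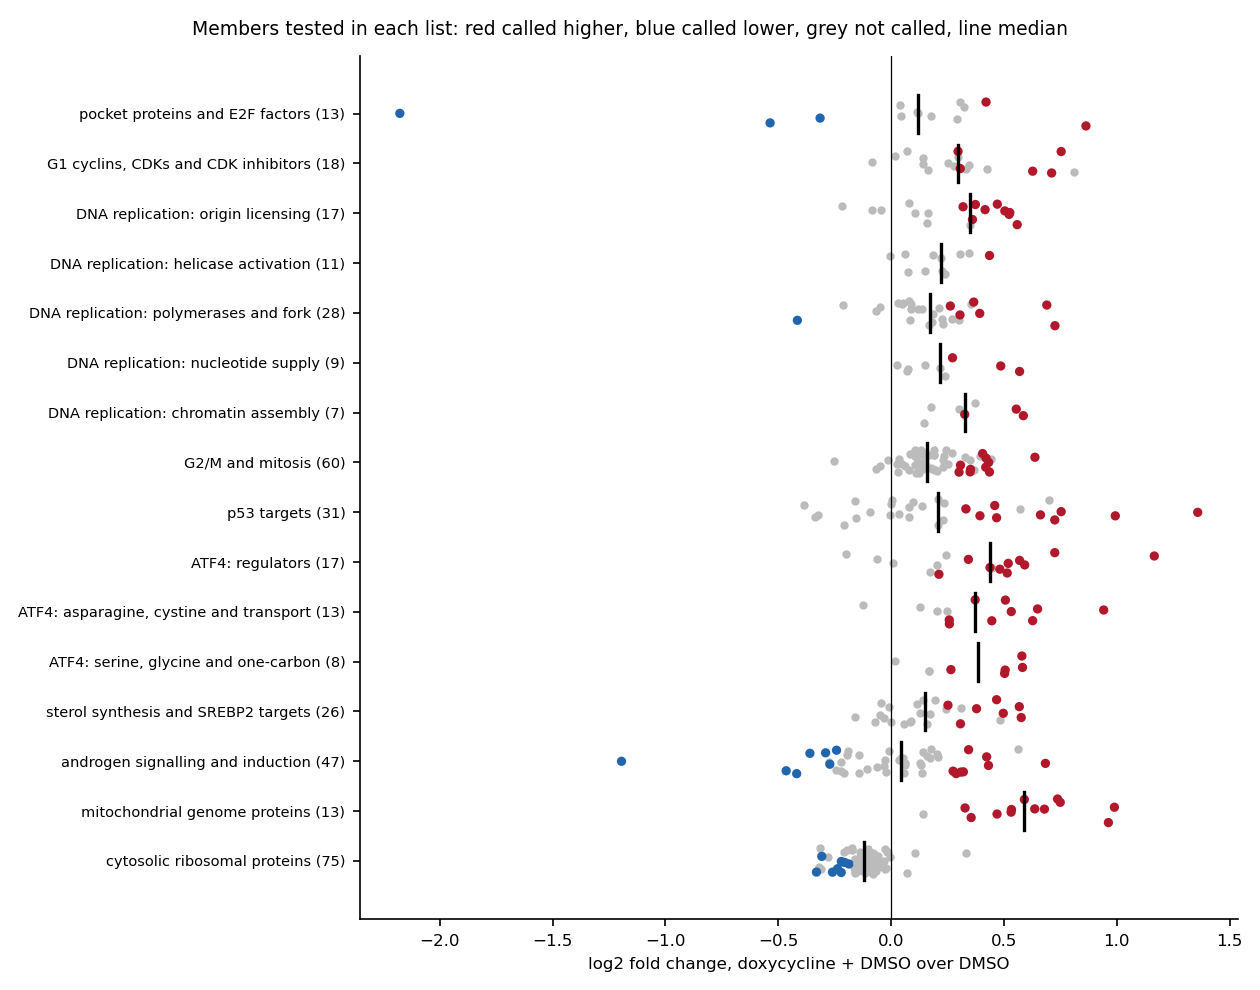
Each point is the log2 fold change (x axis, doxycycline with DMSO over DMSO) of 1 tested member in its list (rows), red where called higher, blue where called lower and grey where not called, with a line at the median. Medians of the ATF4 and mitochondrial genome lists are 0.41 and 0.59, and ODC1, at -1.19, is the lowest member of the androgen signalling and induction list.

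The androgen axis was split. Of 47 tested genes of androgen signalling and induction 8 rose and 7 fell, and the median was 0.04. In the kallikrein and secretory group 1 of 11 rose and 4 fell (median -0.20). KLK2, a serine protease made by luminal cells, fell to 1016 and 991 CPM with doxycycline, against 1377 and 1306 CPM without it (log2 fold change -0.42 ± 0.06, adjusted p = 0.000295). TMPRSS2, a membrane protease, fell to 866 and 872 CPM with doxycycline, against 1175 and 1222 CPM without it (-0.46 ± 0.05, adjusted p = 7.93e-05). Both held. KLK3, which encodes prostate-specific antigen, stood at 6368 and 6201 CPM with doxycycline, against 7774 and 7594 CPM without it (-0.29 ± 0.05, adjusted p = 0.00219), a call lost without doxycycline replicate 2 (adjusted p = 0.0736).

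Against these, RAB3B, a vesicle GTPase, rose to 202 and 202 CPM with doxycycline, against 152 and 149 CPM without it (log2 fold change 0.42 ± 0.07, adjusted p = 0.00164) and held. SLC45A3 (prostein) rose by 0.43 ± 0.08, a call lost without untreated replicate 2 or doxycycline replicate 1 (adjusted p = 0.0519 to 0.0667). FKBP5, a chaperone of steroid receptors, rose by 0.31 ± 0.07, lost without any 1 of the 4 DMSO libraries (adjusted p = 0.0888 to 0.146). The kinase CAMKK2 fell by 0.36 ± 0.06 and held. Of 15 tested androgen-repressed genes 1 rose, CAMK2N1 (0.36 ± 0.06), and lost its call without untreated replicate 1 or doxycycline replicate 1 (adjusted p = 0.0566 to 0.0573).

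ODC1, which encodes ornithine decarboxylase, the first enzyme of polyamine synthesis and an androgen-induced gene, had the smallest p of all genes called lower. It stood at 629 and 634 CPM with doxycycline, against 1447 and 1442 CPM without it (fold 0.437, log2 fold change -1.19 ± 0.06, adjusted p = 7.56e-10). AMD1, which supplies the aminopropyl groups, fell by 0.33 ± 0.07, a call lost without any 1 of the 4 DMSO libraries (adjusted p = 0.0608 to 0.134). SRM, the spermidine synthase (0.33 ± 0.08, lost without any 1 of the 4 DMSO libraries (adjusted p = 0.0829 to 0.206)), and AZIN1, which frees ODC1 from its antizyme (0.39 ± 0.09, lost without untreated replicate 1, doxycycline replicate 1 or doxycycline replicate 2 (adjusted p = 0.0736 to 0.259)), rose, so that 4 of 17 polyamine genes were higher and 2 lower.

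Of 16 luminal markers 2 rose and 4 fell: OCLN (0.47 ± 0.08) and CDH1 (0.19 ± 0.05) were higher, and DSP (-0.43 ± 0.05), KRT19 (-0.44 ± 0.09), TJP1 (-0.33 ± 0.06) and GRHL2 (-0.23 ± 0.06) lower, DSP alone holding. Of 27 neuroendocrine and plasticity genes 10 passed the filter on low counts, and 1 of these was called: ENO2, neuron-specific enolase, lower at -0.30 ± 0.06 and lost without any 1 of the 4 DMSO libraries (adjusted p = 0.0607 to 0.107). Of 17 basal and mesenchymal genes 5 passed and FN1 (fibronectin) was called, lower at -0.26 ± 0.05 and lost without untreated replicate 2, doxycycline replicate 1 or doxycycline replicate 2 (adjusted p = 0.0657 to 0.135).

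Lists of chromatin regulators had calls in both directions, and called members numbered 3 of 19 for LSD1-CoREST, 3 of 15 for NuRD and 7 of 17 for DNA methylation and PRC2, against 4.25% of all genes called higher and 3.59% lower. KDM1A, the gene of LSD1, stood at 105 and 99.7 CPM with doxycycline, against 106 and 108 CPM without it and had -0.06 ± 0.07 with no call (adjusted p = 0.672). Among 19 genes of the LSD1-CoREST complex and its partners, KDM1B rose and ZNF217 and ZMYM3 fell, and 0 held. In the NuRD complex, which couples a remodeller to histone deacetylases, MTA2 fell to 91.4 and 94.8 CPM with doxycycline, against 144 and 142 CPM without it (log2 fold change -0.62 ± 0.07, adjusted p = 7.93e-05) and CHD3 to 614 and 603 CPM with doxycycline, against 822 and 756 CPM without it (-0.37 ± 0.06, adjusted p = 0.00123); both held. RBBP4, a histone chaperone that belongs to NuRD, PRC2 and CAF-1 alike, rose by 0.33 ± 0.08, lost without untreated replicate 1, doxycycline replicate 1 or doxycycline replicate 2 (adjusted p = 0.116 to 0.211). Of 17 genes of DNA methylation and PRC2, DNMT1 (0.33 ± 0.07), DNMT3B (0.49 ± 0.10), EZH2 (0.35 ± 0.10), PHF19 (0.52 ± 0.12) and RBBP4 rose, TET3 (-0.37 ± 0.07) and EZH1 (-0.35 ± 0.09) fell, and 0 held (adjusted p = 0.0588 to 0.381 where a call was lost).

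Of 26 sterol synthesis and SREBP2 target genes 7 rose and 0 fell (median 0.15). INSIG1, which retains SREBP in the endoplasmic reticulum, stood at 368 and 370.1 CPM with doxycycline, against 237 and 261 CPM without it (log2 fold change 0.57 ± 0.07, adjusted p = 7.93e-05) and held. ACLY, which makes cytosolic acetyl-CoA from citrate, was among the genes with the smallest p of those that fell, at 895 and 892 CPM with doxycycline, against 1342 and 1333 CPM without it (-0.58 ± 0.05, adjusted p = 8.58e-06). The desaturase FADS1 rose by 0.47 ± 0.06 and held, and 5 of 22 fatty acid synthesis genes rose in all, against 1 that fell.

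In glycolysis 18 of 19 genes had a negative log2 fold change, and 5 fell while 1 rose (median -0.13). ALDOA, the aldolase, stood at 4235 and 4104 CPM with doxycycline, against 6347 and 5758 CPM without it (log2 fold change -0.54 ± 0.06, adjusted p = 9.36e-05), while GAPDH (-0.42 ± 0.05) and GPI (-0.39 ± 0.06) also fell; these 3 held. The 1 that rose was the hexokinase HK2 (0.28 ± 0.06). Of 18 targets of the hypoxia factor HIF 5 rose and 1 fell. CA12, a carbonic anhydrase, and P4HA2, a collagen prolyl hydroxylase, rose by 0.50 ± 0.08 and 0.54 ± 0.08 and held, and CA9 rose by 0.74 ± 0.16, lost without untreated replicate 1, untreated replicate 2 or doxycycline replicate 1 (adjusted p = 0.0932 to 0.117).

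Genes of the mitochondrial genome rose almost as one. Of 13 that encode respiratory chain subunits 12 were called higher, with a median of 0.59. MT-ND4L stood at 1048 and 1066 CPM with doxycycline, against 454 and 630.4 CPM without it (log2 fold change 0.96 ± 0.10, adjusted p = 2.71e-05), and MT-ND1 at 1479 and 1447 CPM with doxycycline, against 746 and 1080.5 CPM without it (0.68 ± 0.11, adjusted p = 0.00088). MT-ATP8 rose by 0.99 ± 0.16. The share of reads on these 13 genes was 4.41% and 4.40% with doxycycline, against 2.72% and 3.58% without it, so that untreated replicate 1 was the lowest. Without that library 6 of the 13 were called and MT-ND1 had a log2 fold change of 0.44. Under the inhibitor the share was 3.99% and 4.14% with doxycycline, against 4.61% and 4.05% without it. Whether a difference in RNA preparation contributed was not tested.

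Among all genes tested, 4.25% were called higher and 3.59% lower. Of 76 nuclear respiratory chain subunits 0 rose and 4 fell (NDUFB5, NDUFV1, ATP5A1 and ATP5H), with a median of -0.06. At an unadjusted p under 0.05 in edgeR 4 were higher, and 0 were called higher by DESeq2 or limma voom. Of 75 mitochondrial ribosomal proteins 0 rose (4 unadjusted, 0 by the other tools) and 2, MRPL11 and MRPL28, fell. These falls, 4 of 76 and 2 of 75, were near the share over all genes. None of these 6 held; NDUFB5 (-0.38 ± 0.09) lost its call without untreated replicate 2, doxycycline replicate 1 or doxycycline replicate 2 (adjusted p = 0.0521 to 0.192). Cytosolic ribosomal proteins had 72 of 75 members below 0, with a median of -0.12, and 8 were called lower and 0 higher (1 unadjusted), among them RPL11 (-0.33 ± 0.06), RPS9 (-0.31 ± 0.06) and RPL3 (-0.26 ± 0.06), 3 calls that were each lost without untreated replicate 1, doxycycline replicate 1 or doxycycline replicate 2 (adjusted p = 0.0516 to 0.154). Many ribosomal protein genes have pseudogene copies, which can take up reads.

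Of 33 interferon-stimulated genes OAS3 (0.42 ± 0.09) and USP18 (0.52 ± 0.11) rose and 4 fell, of which STAT2, a transcription factor downstream of interferon receptors, held at 47.8 and 46.0 CPM with doxycycline, against 73.5 and 65.9 CPM without it (log2 fold change -0.57 ± 0.08, adjusted p = 0.000482). Of 16 antigen presentation genes 4 fell, among them HLA-E, TAPBP and HLA-B (-0.30 ± 0.07), whose call was lost without any 1 of the 4 DMSO libraries (adjusted p = 0.0574 to 0.154). HMOX1, heme oxygenase, fell by 0.64 ± 0.08 and held. The ferritin chains went opposite ways, FTH1 higher (0.56 ± 0.15) and FTL lower (-0.32 ± 0.07), both calls lost without any 1 of the 4 DMSO libraries. Of 26 actin and myosin genes 2 rose and 6 fell. TAGLN2 (transgelin 2) held at 102 and 97.2 CPM with doxycycline, against 152 and 145 CPM without it (-0.58 ± 0.07, adjusted p = 0.000149). ACTA2 rose by 0.96 ± 0.23 and MYL9 fell by 1.28 ± 0.25, calls lost without any 1 of the 4 DMSO libraries (adjusted p = 0.0518 to 0.191) and without untreated replicate 1 or doxycycline replicate 1 (adjusted p = 0.0537 to 0.0888). Of 34 autophagy and lysosome genes ATG7, ATG14 and PSAP fell and 0 rose (3 unadjusted, 0 by DESeq2 or limma voom), with none holding. Proteasome subunits (0 of 31), heat shock genes (0 of 16), NF-kB and cytokine genes (0 of 10) and MYC-driven ribosome biogenesis genes (0 of 30) had no call in edgeR, DESeq2 or limma voom. At an unadjusted p under 0.05 they had 10, 3, 2 and 3 lower members and 0, 0, 0 and 1 higher ones.

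Beyond the lists, LAP3, a leucine aminopeptidase, had 23.9 and 24.3 CPM with doxycycline, against 52.2 and 53.1 CPM without it (log2 fold change -1.12 ± 0.09, adjusted p = 2.44e-06). LMNB1, which encodes lamin B1 of the nuclear envelope, fell to 85.9 and 82.6 CPM with doxycycline, against 145 and 140.4 CPM without it (-0.76 ± 0.07, adjusted p = 8.58e-06), and RCC2, a regulator of chromosome condensation, had -0.78 ± 0.07. Lower as well were MAD2L1BP, which helps to silence the spindle checkpoint (-0.97 ± 0.09), NBR1, an autophagy receptor (-0.72 ± 0.06), ANO6, a phospholipid scramblase (-0.96 ± 0.11), and PPIC, a cyclophilin (-1.39 ± 0.15). These 7 and the transcript GS1-358P8.4 (-1.21 ± 0.11) held. On the other side BRI3BP stood at 139 and 145 CPM with doxycycline, against 83.0 and 86.4 CPM without it (0.75 ± 0.07, adjusted p = 5.25e-06), and MESDC1 rose by 1.27 ± 0.15. LRRC26 rose by 1.26 ± 0.22 and AOC1, a diamine oxidase, fell by 0.93 ± 0.18, calls lost without untreated replicate 1 (adjusted p = 0.0832) and without untreated replicate 1 or doxycycline replicate 1 (adjusted p = 0.0622 to 0.121).

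The same 3 days of doxycycline under GSK2879552 gave 832 genes higher (4.52%) and 590 lower (3.2%) in 4 other libraries. Of the genes called with DMSO, 415 higher ones (53% of 783, and 49.9% of the 832) and 303 lower ones (45.8% of 661, and 51.4% of the 590) were also called with the inhibitor, and 1398 of 1444 had the same sign (96.8%, against 69.9% over all genes tested). The spread is shared by both contrasts, since it was estimated over all 8 libraries. ODC1 stood at 797 and 815 CPM with doxycycline and the inhibitor, against 1671 and 1561 CPM with the inhibitor alone (log2 fold change -1.003 ± 0.056), and the difference of the 2 effects, inhibitor minus DMSO, was 0.19 ± 0.08 (adjusted p = 0.984). CHAC1 had 0.995 ± 0.116 under the inhibitor, and the difference was not called (adjusted p = 0.987). DNA replication had 30 of 72 members higher under the inhibitor and 22 with DMSO, at medians of 0.24 and 0.22, and ATF4 24 and 24 of 38, at 0.41 and 0.41.

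The difference itself was called for 3 genes of 18423 (0.0163%), all lower under the inhibitor: MT-ND4L, CTD-2328D6.1 and RNA5-8SP6. This count depended on single libraries: without inhibitor-only replicate 1, 70 genes were called higher and 125 lower, without inhibitor-only replicate 2, 36 and 40, without untreated replicate 2, 0 and 15, and without doxycycline-inhibitor replicate 2, 0 and 0. MT-ND4L stood at 962 and 1018 CPM with doxycycline and the inhibitor, against 1005 and 912 CPM with the inhibitor alone, and its difference was -0.92 ± 0.14 (adjusted p = 0.039). The mitochondrial genome list as a whole had a median of -0.11 with 0 of 13 called under the inhibitor, against 0.59 and 12 of 13 with DMSO. CTD-2328D6.1, for which no function is given here, had a difference of -0.995 ± 0.127 (adjusted p = 0.00456). The call of MT-ND4L was lost without either doxycycline library with DMSO or with the inhibitor (adjusted p = 0.0802 to 0.555), and that of CTD-2328D6.1 without untreated replicate 1 or doxycycline-inhibitor replicate 2 (0.0545 and 0.0817).

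In the DHT experiment, 3 days of the same doxycycline dose gave far fewer calls in a joint fit of both tables, 22 higher (0.115%) and 19 lower (0.0997%) of 19059 genes, with 1 library per condition and a fit that takes the effects of doxycycline and DHT as additive. RB1 had -2.49 ± 0.15 there, at 7.83 and 10.0 CPM after 3 days of doxycycline with vehicle and with DHT, against 48.3 and 51.0 CPM without doxycycline. Of the 22 higher genes 17 were also called higher with DMSO alone (77.3% of them, and 2.17% of 782), among them MCM2, MCM3, MCM4, MCM5, MCM6, CDT1, CDC7, FEN1, E2F1, BRCA1 and MIR30A. Of the 19 lower genes 4 were shared, RB1, TMPRSS2, NDRG1 and C9orf41 (21.1%, and 0.605% of 661). The experiments share no library, but differ in serum, kit and androgen, which cannot be told apart from the experiment.

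Of the 72 DNA replication genes 22 were called higher here and 10 in the DHT experiment, 8 of them in both. MCM3 had 0.47 ± 0.06 here, against 0.43 ± 0.07 there, and E2F1 0.42 ± 0.08, against 0.44 ± 0.09. Over the 72 members the medians were 0.22 and 0.29, and 0 differences were called by edgeR (3 at an unadjusted p under 0.05, 1 higher here and 2 lower). The stress response differed. Of 38 ATF4 genes 0 were called in the DHT experiment in edgeR (median 0.01; at an unadjusted p under 0.05, 1 was higher and 3 were lower), and 15 had a called difference, all higher here. CHAC1 stood at 32.3 and 12.5 CPM after 3 days of doxycycline with vehicle and with DHT, against 31.7 and 13.7 CPM without doxycycline (log2 fold change -0.04 ± 0.12), and the difference between the effects was 1.21 ± 0.16 (adjusted p = 0.00011). The p53 list had medians of 0.21 and 0.03 with 4 called differences, and CDKN1A one of 0.57 ± 0.10 (adjusted p = 0.00283).

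Over all genes 200 differences between these effects were called (1.05%), 128 higher here and 72 lower. ODC1 stood at 1163 and 2726 CPM after 3 days of doxycycline with vehicle and with DHT, against 1096 and 2963 CPM without doxycycline, a log2 fold change of -0.02 ± 0.07, and its difference was -1.17 ± 0.10 (adjusted p = 2.3e-07). LAP3, LMNB1, MAD2L1BP and the transcript GS1-358P8.4 fell here and had 0.05 ± 0.08, 0.26 ± 0.08, 0.09 ± 0.09 and 0.24 ± 0.11 there. SETD7, a lysine methyltransferase, and SLC39A14, a zinc and iron importer, were called in opposite directions, at 0.38 ± 0.07 and 0.39 ± 0.07 here and -0.39 ± 0.07 and -0.48 ± 0.07 there; SETD7 lost its call here without untreated replicate 1 or doxycycline replicate 2 (adjusted p = 0.0614 to 0.0816) and SLC39A14 without untreated replicate 1 or doxycycline replicate 2 (adjusted p = 0.0535 to 0.0686). In sterol synthesis 20 of 26 genes had opposite signs, with medians of 0.15 here and -0.10 there, and 4 differences were called.

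**Figure D4:**
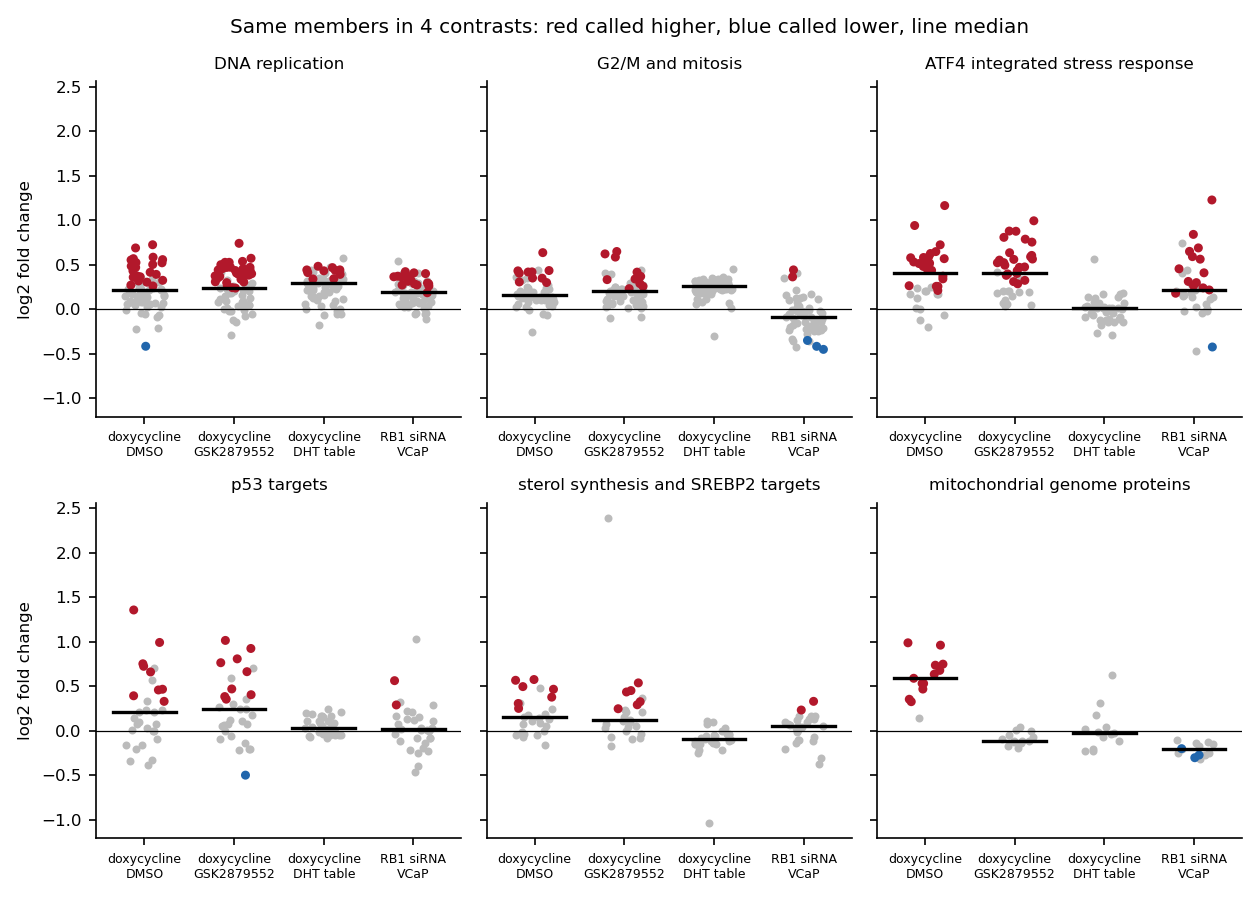
For 6 lists, each point is the log2 fold change (y axis) of 1 member in doxycycline with DMSO, doxycycline with GSK2879552, 3 days of doxycycline in the DHT experiment and RB1 siRNA in VCaP cells, red where called higher, blue where called lower, with a line at the median. DNA replication medians are 0.22, 0.24, 0.29 and 0.19, whereas those of the mitochondrial genome are 0.59, -0.11, -0.03 and -0.20.

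An siRNA against RB1 in VCaP cells changed 224 genes upward (1.12%) and 72 downward (0.36%) of 19976 in a joint fit. Pairs of VCaP libraries within a group differed by 1.13 to 1.39 times counting error (chi-square ratio). That is under the limit of 1.5 set for lanes of 1 library, but they were kept as 3 libraries per group. The labels do not say that these were separate cultures, so the p-values reflect the spread of these libraries alone. RB1 stood at 5.35, 6.74 and 7.41 CPM with the RB1 siRNA, against 56.5, 60.0 and 63.9 CPM with the control siRNA (-3.18 ± 0.16). Of the genes called higher with the hairpin, 51 (6.55% of 779) were among 213 called higher with the siRNA (23.9%), and of those called lower 3, FOLH1, MPZL3 and RB1, were shared (0.455% of 660, and 4.76% of 63). Line, time and way of depletion differ and cannot be told apart, and the labels do not settle the serum of the VCaP cells. DNA replication had 22 of 72 members higher here and 16 in VCaP cells, 11 of them in both, and the medians were 0.22 and 0.19. Of these members 0 had a called difference in edgeR (9 higher here and 7 lower at an unadjusted p under 0.05). MCM2 had 0.42 ± 0.06 here and 0.37 ± 0.06 there.

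Mitotic genes differed. The 60 G2/M genes had medians of 0.16 here and -0.09 in VCaP cells, and 16 differences were called, 15 of them higher here. KIF20A rose by 0.42 ± 0.09 here and fell by 0.42 ± 0.07 there, a difference of 0.83 ± 0.10 (adjusted p = 4.87e-07). Of 33 interferon-stimulated genes 2 were higher here and 18 in VCaP cells, with 11 called differences, and of 16 antigen presentation genes 0 were higher here and 6 there, with 7. HLA-B stood at 204, 208 and 213 CPM with the RB1 siRNA, against 123, 134 and 115 CPM with the control siRNA, and its difference was -1.09 ± 0.09 (adjusted p = 1.6e-11). For all 13 mitochondrial genome genes the difference between the 2 effects was called, all higher here. The rise here leaned on untreated replicate 1, which had the lowest share of such reads (2.72%). Without it, 6 of the 13 were called higher with doxycycline and DMSO.

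In all, 925 differences from the siRNA were called (4.63%), 349 higher here and 576 lower. With RLE in place of TMM scaling the split was 399 and 412. The joint fit took 1 spread per gene over both lines. Pairs of libraries differed by 1.61 to 7.88 times counting error in C4-2 and by 1.13 to 1.39 times in VCaP. The spread of the C4-2 libraries may thus be understated, and the p-values of these differences may be too small. KLK3 fell here (-0.29 ± 0.05) and rose in VCaP cells (0.42 ± 0.04), a difference of -0.71 ± 0.06 (adjusted p = 1.52e-10). H1F0, a linker histone of resting and differentiated cells, stood here at 199 and 188 CPM with doxycycline, against 302 and 277 CPM without it (-0.58 ± 0.07). In VCaP cells it stood at 1524, 1563 and 1538 CPM with the RB1 siRNA, against 1102, 1122 and 1120.3 CPM with the control siRNA, a rise of 0.51 ± 0.04. FAT1, a large protocadherin, moved the other way, 0.44 ± 0.06 here and -0.23 ± 0.05 there. ODC1, RCC2 and BRI3BP had 0.01 ± 0.04, 0.12 ± 0.05 and -0.04 ± 0.06 in VCaP cells with no call, and each difference was called. The ATF4 list had 14 of 38 higher and 1 lower in VCaP cells, at a median of 0.22, with 9 differences higher here and 3 lower.

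**Figure D5:**
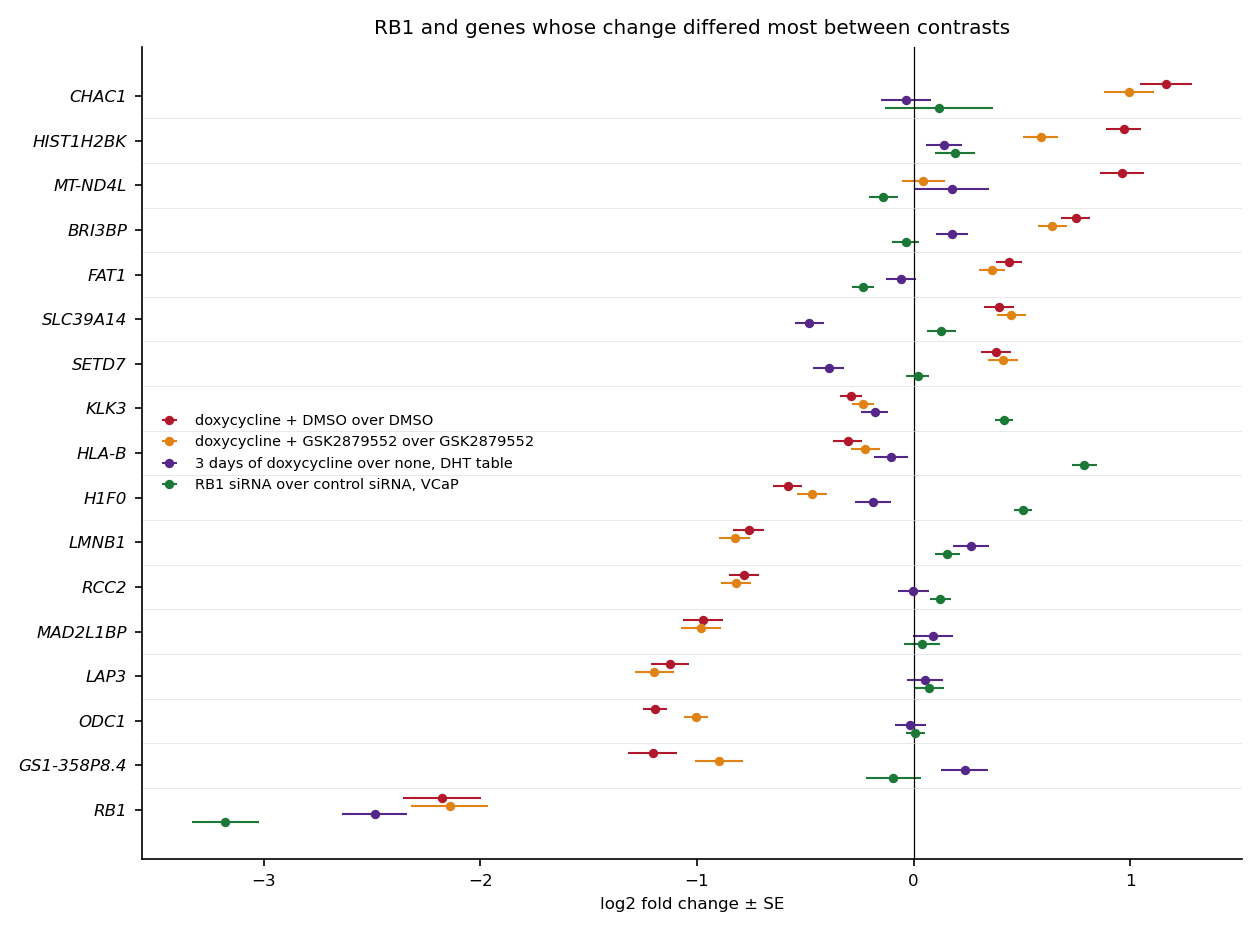
Log2 fold changes with their SE (x axis) are shown in 4 contrasts for RB1 and for genes whose effect differed between experiments (rows). RB1 lies below 0 in all 4, while ODC1 is at -1.19 with DMSO and lower as well under the inhibitor and near 0 in the DHT experiment and in VCaP cells.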

How the data were processed

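The values that the authors deposited are raw counts of reads per Ensembl gene with no normalization. Per the submitters' processing notes, these counts came from FastQC 0.11.9, STAR 2.7.2, featureCounts 1.6.4 and the genome build hg19 (GRCh37). How strand and multiply aligned reads were handled is not stated. The 8 libraries of the C4-2 table with GSK2879552 were fitted together with edgeR 4.0.16 in R 4.3.3 (4 group means, TMM, filterByExpr, quasi-likelihood F test). The SE is the size of the log2 fold change over the root of its F statistic. Columns of the DHT table labelled as 2 replicates of a condition differed by about counting error alone (chi-square ratio 0.983 to 1.01). They were taken as lanes of 1 library and summed. Differences between experiments came from joint fits with that table (14 libraries, 2 of them after 30 days of doxycycline; 19059 genes) or with VCaP (14 libraries, 19976 genes). The joint fits use 1 scaling over both tables, so levels should be compared within a table. Each also took 1 spread per gene over both tables. The common relative spread between libraries was 5.57% with the DHT table and 4.92% with VCaP, against 5.79% in the fit of the 8 libraries. The spread of those 8 may thus be understated in the joint fits, and the p-values of differences may be too small. DESeq2 1.42.0 and limma 3.58.1 (voom) were alternatives. Only the fit of the 8 libraries, for doxycycline with DMSO, was tested on simulated data, and the joint fits were not. Depth was 14515932 to 22326960 counts per library.

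Genes named were fixed members, the 8 smallest p and 8 largest changes per direction (the changes at a mean log2 CPM of at least 3), up to 3 called members per list and direction, and the 5 leading genes of each difference; other list members named were chosen after their values were seen. The members and lists were chosen with earlier results of these data known. Not every gene chosen in this way is reported here. Replicate numbers do not pair the libraries: deviations of same-numbered libraries correlated at -0.125 to 0.0353 between groups.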

Additional observations from a re-analysis of the deposited data

Results flagged for a closer look

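The doxycycline effect differed between experiments, by a test of the difference itself in edgeR, for the genes below; each value is a difference of log2 fold changes ± SE. Inhibitor minus DMSO was -0.92 ± 0.14 for MT-ND4L (adjusted p = 0.039) and -0.995 ± 0.127 for CTD-2328D6.1 (adjusted p = 0.00456).

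The effect with DMSO minus that of 3 days in the DHT experiment was above 0 for CHAC1 (1.21 ± 0.16), SLC39A14 (0.88 ± 0.10), HIST1H2BK (0.84 ± 0.12) and SETD7 (0.78 ± 0.10). It was below 0 for GS1-358P8.4 (-1.44 ± 0.16), ODC1 (-1.17 ± 0.10), LAP3 (-1.17 ± 0.12), MAD2L1BP (-1.06 ± 0.13) and LMNB1 (-1.02 ± 0.12). The adjusted p of these 9 lay between 2.3e-07 (ODC1) and 0.000178 (HIST1H2BK).

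The effect with DMSO minus that of the RB1 siRNA in VCaP cells was above 0 for MT-ND4L (1.10 ± 0.10), BRI3BP (0.79 ± 0.09) and FAT1 (0.68 ± 0.08). It was below 0 for ODC1 (-1.20 ± 0.06), HLA-B (-1.09 ± 0.09), H1F0 (-1.09 ± 0.07), RCC2 (-0.91 ± 0.08) and KLK3 (-0.71 ± 0.06). The adjusted p of these 8 lay between 1.55e-16 (ODC1) and 7.64e-08 (BRI3BP). These values may be too small, since the joint fit took 1 spread per gene over both lines. Serum and kit differ with the DHT experiment, and line and way of depletion with VCaP cells, and cannot be told apart from the experiment.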

How the results depend on the processing

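The 1444 genes called in doxycycline with DMSO kept their sign in each alternative in which they were tested, all of which reuse the same libraries. The number called changed. The cause was not tested. With only the 4 DMSO libraries 1836 genes were called higher and 1704 lower, with 39 of DNA replication and 30 of G2/M higher. With the replicate number as a block, which does not pair these libraries, 528 were higher and 380 lower, all 908 among the 1444. DESeq2 called 640 and 544 (80.5% of the 1444 kept) and limma voom 751 and 646. When 1 library was left out, genes called higher numbered 149 to 1676 and lower 130 to 1550. List members called higher then numbered 10 to 37 for DNA replication, 1 to 24 for G2/M, 15 to 28 for ATF4 and 6 to 13 for the mitochondrial genome. The difference between inhibitor and DMSO gave 0 to 70 genes higher and 0 to 125 lower when 1 library was left out, the most without inhibitor-only replicate 1, and 7 and 32 with no filter on low counts. The difference from the DHT experiment gave 51 to 88 higher and 34 to 45 lower, against 128 and 72 with all libraries, and 216 higher with no filter. The difference from VCaP cells gave 168 to 289 higher and 294 to 509 lower. Of 139 named genes called, 58 were called under every alternative and 0 changed sign. With 2 libraries per group, which small changes were called depended on the libraries in the fit. Of the named genes with no call, 4 (MCM7, RBL1, CCNE1 and CDK4) were called with only the 4 DMSO libraries.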

Other observations

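Over all genes tested, 4.25% were called higher with doxycycline and DMSO and 3.59% lower. Of 17 mitochondrial aminoacyl-tRNA synthetases 0 rose (1 at an unadjusted p under 0.05 in edgeR, 0 by DESeq2 or limma voom) and SARS2 fell (-0.54 ± 0.16). The call of SARS2 was lost without any 1 of the 4 DMSO libraries and without either doxycycline-inhibitor library. Of 22 genes of mitochondrial stress and proteostasis 0 rose (1 unadjusted, 0 by the other tools). SPG7, a protease of the inner membrane, had -0.26 ± 0.08, and C10orf2 (TWNK), the mitochondrial DNA helicase, had -0.38 ± 0.11. Each call was lost without any 1 of the 4 DMSO libraries and without either doxycycline-inhibitor library. Of 13 metallothioneins and zinc transporters SLC39A6 (0.25 ± 0.07) and SLC39A14 (0.39 ± 0.07) rose and 0 fell (2 unadjusted, 0 by the other tools), and both calls were lost without at least 1 library. Of 22 antioxidant genes 3 rose and 2 fell. CAT, the catalase, rose by 0.23 ± 0.07, a call lost without any 1 of the 4 DMSO libraries and without either doxycycline-inhibitor library.

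Of the genes called with DMSO, 1005 of 1443 had the same sign after 3 days of doxycycline in the DHT experiment (69.6%, against 56.6% over all genes tested in both). With the RB1 siRNA in VCaP cells the same sign was found in 509 of 779 genes called higher (65.3%) and in 271 of 660 called lower (41.1%), against 49.2% over all genes. Genes are not independent replicates, and the contrast under the inhibitor shares its kit, medium and estimate of spread with the one described.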
